A study of Mus musculus with 30 samples.

Results

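The genes of 10 receptors through which soluble agonists and inhibitors act on blood platelets were followed in platelets and in peripheral blood mononuclear cells (PBMCs) of mice from a melanoma model. They were taken by gene symbol and comprise the thrombin receptor family (F2r, F2rl2, F2rl3), the nucleotide receptors (P2ry1, P2ry12, P2rx1), the prostanoid receptors (Tbxa2r, Ptger3, Ptgir) and the epinephrine receptor Adra2a. All 10 were found among the 54532 genes of the count tables. RNA sequencing was done on platelets and PBMCs of the C group (injected with HBSS buffer alone, ctrl), the S group (2000 B16F10 melanoma cells, early tumor) and the O group (100000 B16F10 cells, large tumor), with 5 libraries per group and tissue and 30 in all. Every group consisted of female C57BL/6 mice, 6 to 8 weeks old at the start, that were injected subcutaneously, and blood was drawn on day 14 into EDTA. B16F10 is a transplantable mouse melanoma line grown here in a host of the same strain, and the S group had no visible tumor at autopsy. The paper reports that most mice given the S group's cell number stayed free of visible tumors. It also says that the S pools took in mice that might never have grown one. Each library was an RNA pool of several mice: 3 to 5 in the O group, 10 per the labels and 9 to 11 per the methods in platelets of the S group, 5 or 10 in platelets of the C group, and 4 or 5 in PBMCs of the S and C groups. Platelets were pelleted from platelet-rich plasma, with no step to deplete leukocytes named. The libraries held between 12259036 and 25360080 counts in platelets and between 13390983 and 15973449 in PBMCs.

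Levels are given as CPM, the gene's share of a library's counts scaled to a common size, after TMM scaling over all 30 libraries, which leaves the libraries with unequal sums. Levels of different genes were compared only as CPM per kilobase of exon. A difference was called when the adjusted P of edgeR's quasi-likelihood test was under 0.05. PBMCs were isolated from the blood left after the platelet-rich plasma was taken, and O group pool sizes are the same in both tissues, but the sources do not state that same-numbered platelet and PBMC pools held the same mice. The tissue comparison therefore treats the pools as separate, and P-values measure the spread between pools.

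The platelet libraries were rich in platelet markers and also held markers of leukocytes, erythroid cells and endothelial cells. All 12 tested of 13 platelet and megakaryocyte markers were higher in platelets than in PBMCs, and their summed level was 16350 to 87930 CPM in platelets and 574.5 to 7246 CPM in PBMCs. The 8 T cell markers summed to 155.7 to 397.8 CPM in platelets and 409 to 885 CPM in PBMCs, and no T cell, B cell or monocyte marker was at 0 in any platelet library. Of the T cell markers 7 of 8 were lower in platelets than in PBMCs (median log2 fold change −1.42), and of the monocyte markers 7 of 8 (median −2.38), although the monocyte sums overlapped (979.5 to 4974 CPM in platelets and 1950 to 4419 CPM in PBMCs). All 7 endothelial markers were higher in platelets (median log2 fold change 5.10), with sums of 220.5 to 734.6 CPM in platelets and 8.252 to 38.3 CPM in PBMCs and none at 0 in a platelet library. Among them is Esam, an adhesion molecule that platelets are known to carry too. The 7 erythroid markers were also all higher in platelets (median 1.81), and the part of either list in the tissue differences of the receptors was not tested. Hemoglobin genes took 4.02 to 39% of platelet counts and 3.23 to 24.5% of PBMC counts. One platelet library, O group replicate 1 (a pool of 3 mice), stood apart, with hemoglobin at 39% and 9 neutrophil markers summing to 5231 CPM, where the other platelet libraries had 232.5 to 1077 CPM.

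Thrombin, ADP, thromboxane A2 and epinephrine each act on platelets through receptors in the cell membrane, and nearly all of these receptors couple to G proteins. Thrombin receptors are protease-activated: thrombin cuts the receptor's outer end, and the new end acts as the ligand. Human platelets rely on the receptors encoded by F2R and F2RL3, whereas mouse platelets are known to use the products of F2rl2 (PAR3, a cofactor that holds thrombin) and F2rl3 (PAR4, which signals), and to lack a functional product of F2r (PAR1). P2ry1 and P2ry12 encode the ADP receptors, coupled to Gq and Gi, and P2rx1 encodes an ATP-gated cation channel. Tbxa2r encodes the thromboxane receptor, Ptger3 the prostaglandin E receptor EP3, Ptgir the inhibitory prostacyclin receptor and Adra2a the alpha-2A adrenergic receptor.

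Bases from before a RefSeq transcription start are shown for F2rl2 and P2rx1, the genes whose levels ran most closely together over the platelet libraries. They are also shown for F2rl3 and F2r, the other thrombin receptors. They are from RefSeq (GRCm38.p6), which gave a promoter for 7 of the 10 members (not P2ry1, P2ry12 or Adra2a), are written 5′ to 3′ on the gene's strand and leave out any base inside an annotated exon. Those of F2rl2, P2rx1 and F2r end where the first annotated exon begins. The F2rl3 sequence ends at chr8:72761658, upstream of the gene start at chr8:72761880 that is given below. Capitals mark GATA-type and ETS-type words on either strand. GATA and ETS factors are among the families that act in megakaryocytes, the cells that shed platelets.
F2rl2 (chr13:95696670-95696852, plus strand): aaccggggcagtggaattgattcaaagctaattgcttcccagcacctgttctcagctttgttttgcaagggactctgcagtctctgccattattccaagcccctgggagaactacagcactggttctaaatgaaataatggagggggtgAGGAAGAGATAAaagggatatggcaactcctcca
P2rx1 (chr11:72998895-72999102, plus strand): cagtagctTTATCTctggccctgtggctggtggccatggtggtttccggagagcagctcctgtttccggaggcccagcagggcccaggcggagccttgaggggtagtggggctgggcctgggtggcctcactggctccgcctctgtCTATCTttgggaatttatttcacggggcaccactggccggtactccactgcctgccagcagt
F2rl3 (chr8:72761409-72761658, plus strand): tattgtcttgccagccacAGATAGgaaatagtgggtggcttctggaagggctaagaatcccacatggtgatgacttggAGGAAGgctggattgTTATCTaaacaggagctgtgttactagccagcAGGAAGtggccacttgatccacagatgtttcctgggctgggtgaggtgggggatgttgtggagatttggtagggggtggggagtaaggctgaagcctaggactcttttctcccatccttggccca
F2r (chr13:95618488-95618716, minus strand): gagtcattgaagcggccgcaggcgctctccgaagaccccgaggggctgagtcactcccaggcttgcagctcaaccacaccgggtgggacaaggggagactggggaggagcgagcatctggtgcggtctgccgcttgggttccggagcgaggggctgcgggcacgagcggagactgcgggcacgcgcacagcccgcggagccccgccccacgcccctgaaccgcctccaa
The GATA-type words searched were AGATAA, which stands in the F2rl2 sequence and on the opposite strand of the P2rx1 and F2rl3 sequences, together with AGATAG, which stands in the F2rl3 sequence and on the opposite strand of the P2rx1 sequence, and also TGATAA, which none of the sequences shown holds on either strand, and likewise TGATAG, which is absent from all of them too. The ETS-type words searched were AGGAAG, which stands in the F2rl2 sequence and at both places marked in the F2rl3 sequence, and CGGAAG, which none of the sequences shown holds. No GATA-type word overlaps an ETS-type word, although they adjoin in F2rl2. F2rl2 had 1 GATA-type and 1 ETS-type word, P2rx1 had 2 GATA-type words and no ETS-type word, F2rl3 had 2 of each, and F2r had none. Of the promoters not shown, those of Ptger3, Ptgir and Tbxa2r (2 starts) held no GATA-type word, and there was 1 ETS-type word for Ptgir, 2 at one start of Tbxa2r and none for Ptger3. Of 32851 mouse promoters in windows of 300 bases, 29.8% held a GATA-type word and 46.5% an ETS-type word. A word is a match of letters, not a bound site.

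Among the 10 receptors, 3 carried nearly all of the receptor RNA of platelets. Per kilobase of exon, P2ry12 (331 ± 160 CPM, SD, n = 15), P2rx1 (309 ± 180) and F2rl2 (152 ± 75.3) stood far above the rest. A middle tier held Ptgir (13.5 ± 4.68), P2ry1 (11.5 ± 4.1), F2r (10.9 ± 12.2) and F2rl3 (8.40 ± 8.71). Tbxa2r (2.99 ± 0.706), Ptger3 (1.22 ± 0.85) and Adra2a (0.552 ± 1.17) were lowest. The Adra2a mean rested on O group replicate 1 and was 0.253 ± 0.132 over the other 14 platelet libraries. Over the same 14, F2r averaged 8.26 ± 6.73 and F2rl3 6.80 ± 6.35. Neighbours in this order were compared within libraries by an exact two-sided sign-flip test on log2 levels (18 neighbouring pairs over both tissues, adjusted over them). P2ry12 and P2rx1 could not be told apart (adjusted P = 0.798 by the exact test, P2ry12 higher in 12 of 15 libraries), nor could P2ry1 and F2r (adjusted P = 0.141 by the exact test, P2ry1 higher in 13 of 15). The other 7 platelet neighbours differed, with adjusted P between 0.000275 and 0.0104 in the exact test. F2rl2 made up 15.4 to 26.0% (median 17.0%) of the summed per-kilobase level of the 10 genes, P2rx1 27.3 to 54.1% (median 33.4%) and P2ry12 6.66 to 51.2% (median 44.1%).

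**Figure D1:**
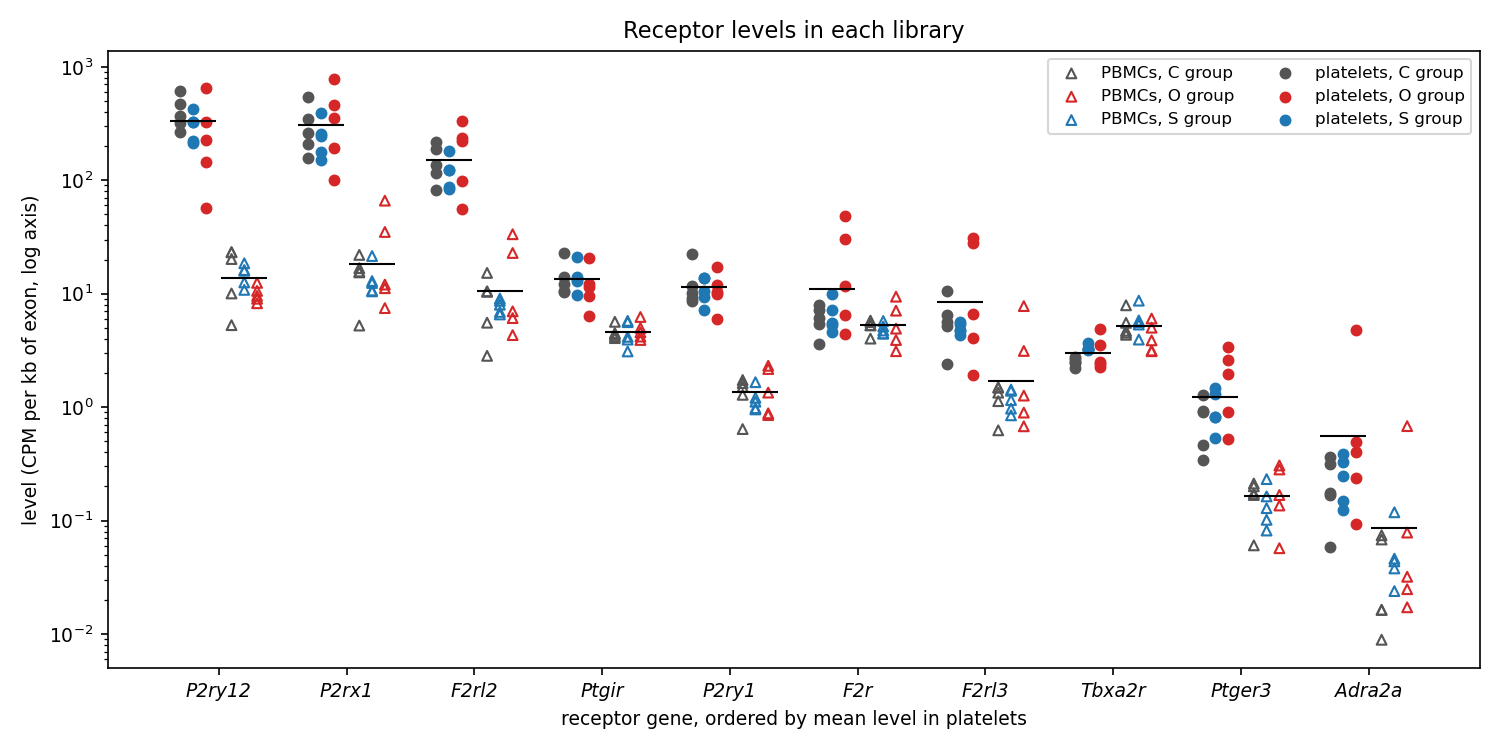
Level of each receptor gene as CPM per kilobase of exon (log axis) in the 15 platelet (filled) and 15 PBMC (open) libraries, colored by group, with a line at the mean of each tissue. P2ry12, P2rx1 and F2rl2 averaged 331, 309 and 152 in platelets, and Adra2a averaged 0.552, or 0.253 without O group replicate 1.

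No receptor was without reads: all 10 had at least 1 count in every platelet and PBMC library. The lowest was Adra2a, with 4 to 119 counts per platelet library and 1 to 43 per PBMC library. In PBMCs the order was P2rx1 (18.3 CPM per kilobase), P2ry12 (13.7), F2rl2 (10.5), F2r (5.26), Tbxa2r (5.17), Ptgir (4.62), F2rl3 (1.71), P2ry1 (1.35), Ptger3 (0.165) and Adra2a (0.0858, or 0.0433 without O group replicate 1). Without that replicate P2rx1 averaged 14.9 in PBMCs, and F2rl3 averaged 1.27, just below P2ry1 at 1.28. There, P2rx1 and P2ry12 (adjusted P = 0.46), F2r and Tbxa2r (0.798), Tbxa2r and Ptgir (0.433), and F2rl3 and P2ry1 (0.798) could not be told apart by the same exact test.

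Between tissues (15 platelet against 15 PBMC libraries), 8 of 9 tested receptors were higher in platelets and 1 was lower (7 and 2 with library totals as the only scaling). Over all 14342 genes tested, 36.7% were higher and 44.7% lower. Adra2a did not pass the filter on low counts. The median log2 fold change of the 9 was 2.79, beside −0.122 over all genes. For 6 of the 9 (P2ry12, P2rx1, F2rl2, P2ry1, Ptger3 and Ptgir) every platelet library lay above every PBMC library, and for none did every platelet library lie below. Over all genes the libraries did not overlap for 12.3% with platelets higher and 14.3% with platelets lower. With same-numbered pools of a group as a block, again 8 were higher and 1 lower. With library totals as the only scaling, the log2 fold changes were 3.34 for P2ry12, 2.85 for P2rx1, 2.635 for F2rl2, 1.83 for P2ry1, 1.46 for Ptger3, 0.98 for F2rl3, 0.26 for Ptgir, −0.49 for F2r and −2.03 for Tbxa2r, and the median over all genes was −1.34, so the folds given below depend on the scaling. In bulk RNA, fewer cells of a type and less RNA per cell cannot be told apart.

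**Figure D2:**
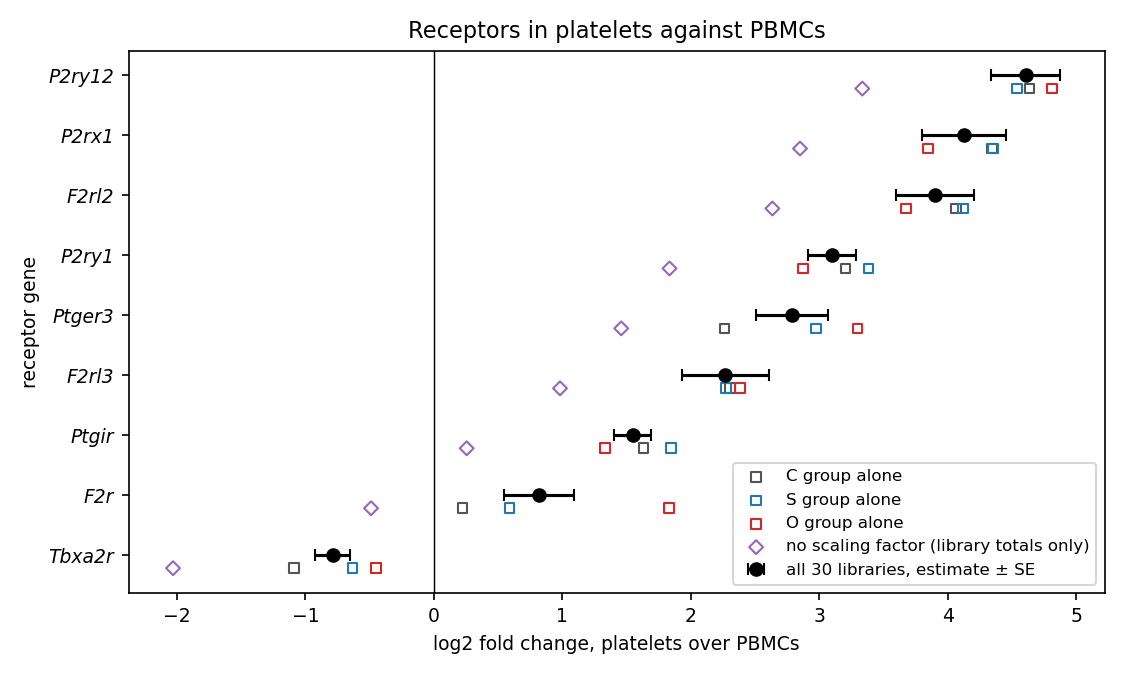
Log2 fold change of 9 receptor genes in platelets over PBMCs, with bars for the standard error, and open marks for each group alone and for library totals as the only scaling. P2ry12 (4.61) was highest, Tbxa2r (−0.79) lay below 0, and F2r (0.82) turned negative (−0.49) with library totals as the only scaling.

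Of the thrombin receptors, F2rl2 showed the greatest difference between tissues. F2rl2 (ENSMUSG00000021675, GRCm38 chr13:95696853-95702739, 2 exon blocks) lies inside Iqgap2 without sharing exon bases. In platelets it had 549, 477, 206, 344 and 288 CPM in C group replicates 1 to 5, then 309, 306, 455, 220 and 211 in the S group and 551, 591, 247, 826 and 139 in the O group. PBMC libraries had 7.09 to 83.7 CPM (median 20.03), all below the lowest platelet library, and the log2 fold change was 3.90 (SE 0.303, adjusted P = 6.05e-13, 14.9-fold). F2rl3 (ENSMUSG00000050147, chr8:72761880-72763874, 1 exon) had 3.81 to 61.5 CPM (median 10.8) in platelets and 1.25 to 15.5 CPM (median 2.52) in PBMCs. These ranges overlapped, and the log2 fold change was 2.27 (SE 0.339, adjusted P = 4.5e-07). Per kilobase, F2rl2 was 7.15 to 35.8 times as high as F2rl3 in platelets (median 24.2), so the cofactor gene exceeded the gene of the signalling receptor in 15 of 15 libraries.

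F2r, the gene of the receptor that mouse platelets are known to lack, was read in every platelet library. F2r (ENSMUSG00000048376, chr13:95601803-95618487, 2 exon blocks) had 24.1, 18.1, 11.9, 20.4 and 26.4 CPM in C group platelets, 17.8, 18.4, 23.9, 15.3 and 32.9 in the S group, and 162, 38.7, 21.7, 102 and 14.8 in the O group. PBMCs had 10.4 to 31.4 CPM (median 17.2), so that outside O group replicates 1, 2 and 4 and S group replicate 5 the platelet libraries lay within the PBMC range. Its log2 fold change between tissues was 0.82 (SE 0.273, adjusted P = 0.00731), but it reversed to −0.49 (adjusted P = 0.042) with library totals as the only scaling, a choice that moved the median of all genes from −0.122 to −1.34. Relative to that median F2r was higher in platelets by 0.94 and 0.85. Within groups the log2 fold change was 0.22 in the C group (adjusted P = 0.289), 0.59 in the S group (adjusted P = 0.0148) and 1.83 in the O group (adjusted P = 0.0254). F2rl2 was 4.55 to 35.2 times F2r per kilobase in platelets (median 20.4) and 0.705 to 3.55 times in PBMCs (median 1.56). Leukocyte markers were present in the platelet libraries at the levels given above, and their part in the F2r level was not tested.

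P2ry12 and P2rx1 gave the widest tissue differences of the 9 receptors. P2ry12 (ENSMUSG00000036353, chr3:59216272-59262871, minus strand, 5 exon blocks) lies within Med12l and shares 9 exon bases with it. P2ry12, which sustains aggregation through Gi and is the target of clopidogrel, had 1198, 1550, 678, 944 and 813 CPM in C group platelets, 828, 838, 1082, 545 and 570 in the S group, and 144, 1654, 580, 830 and 371 in the O group. PBMCs had 13.5 to 59.2 CPM, and the log2 fold change was 4.61 (SE 0.269, adjusted P = 1.34e-15, 24.4-fold). P2rx1 (ENSMUSG00000020787, chr11:72999103-73015200, 12 exon blocks) had 1422, 920, 410, 692 and 552 CPM in C group platelets, 641, 676, 1021, 467 and 399 in the S group, and 1204, 935, 502, 2060 and 263 in the O group. PBMCs had 13.8 to 174 CPM, again all below the lowest platelet library (log2 fold change 4.12, SE 0.326, adjusted P = 9.05e-13, 17.4-fold). P2ry1 (ENSMUSG00000027765, chr3:61002795-61008982), which starts the shape change and calcium response, had 25.4 to 96.6 CPM in platelets and 2.75 to 9.94 in PBMCs. Its log2 fold change was 3.10 (SE 0.189, adjusted P = 3.04e-15, 8.56-fold). Of its 4291 exon bases, 23.1% are shared with the antisense gene Gm37035, and no strand marking is stated, so reads of both cannot be told apart there. Per kilobase, P2ry12 was 5.69 to 51.7 times P2ry1 in platelets (median 30.7).

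Of the prostanoid receptors, Ptger3 and Ptgir were higher in platelets than in PBMCs and the thromboxane receptor Tbxa2r was lower. Tbxa2r (ENSMUSG00000034881, chr10:81328731-81335172, 4 exon blocks) had 4.22 to 9.36 CPM in platelets and 5.97 to 16.7 CPM in PBMCs, with a log2 fold change of −0.79 (SE 0.135, adjusted P = 3.97e-06, 1.73-fold lower). In the O group alone the difference was −0.45 (adjusted P = 0.182) and in the C group alone −1.09. Ptger3 (ENSMUSG00000040016, chr3:157566892-157645888, 4 exon blocks), whose product lowers cyclic AMP on prostaglandin E2, had 1.96 to 19.3 CPM in platelets and 0.325 to 1.74 in PBMCs, a log2 fold change of 2.79 (SE 0.282, adjusted P = 2.13e-10). Ptgir (ENSMUSG00000043017, chr7:16906490-16910905, 2 exon blocks), whose product raises cyclic AMP and restrains platelets, had 21.1 to 76.5 CPM in platelets and 10.3 to 20.8 in PBMCs, a log2 fold change of 1.55 (SE 0.146, adjusted P = 5.08e-11). The Ptgir difference was 0.26 (adjusted P = 0.0468) with library totals as the only scaling. Per kilobase, the platelet libraries thus held more RNA of the inhibitory prostacyclin receptor (13.5 CPM) than of the thromboxane receptor (2.99 CPM). Leukocyte markers were present in these libraries, and their part in either level was not tested.

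Adra2a (ENSMUSG00000033717, chr19:54044151-54048982, 1 exon), through which epinephrine strengthens other agonists, was read at few counts. Platelets had 1.51, 0.84, 0.28, 1.75 and 0.81 CPM in the C group, 1.19, 1.58, 1.85, 0.72 and 0.59 in the S group, and 22.9, 1.96, 1.15, 2.40 and 0.45 in the O group. PBMCs had 0.043 to 3.29 CPM. The highest value in each tissue was O group replicate 1.

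Set against the platelet markers of the same library, P2rx1 and P2ry12 had like ratios in platelet and PBMC libraries. F2rl2 had a somewhat higher ratio in PBMC libraries, and F2r, Tbxa2r and Ptgir had far higher ratios there. Per 10000 CPM of the 13 platelet markers, the median P2rx1 level was 170 for platelet libraries and 182 for PBMC libraries, P2ry12 220 and 194, and F2rl2 85.1 and 105. P2ry1 had 11.7 and 25.8, Ptger3 1.69 and 4.24, and F2rl3 2.71 and 13.8. Ptgir had 11.7 and 84.5, F2r 5.55 and 87.5, and Tbxa2r 1.46 and 51.8. The ranges of P2rx1 were 149 to 234 in platelets and 163 to 295 in PBMCs and overlapped, as did those of P2ry12 (23.8 to 286 and 31.8 to 239). Those of F2rl2 (76.5 to 97.8 and 95.9 to 128) met only through platelet C group replicate 5 (97.8). Every other platelet library lay below every PBMC library for F2rl2. The ranges of F2r (3.33 to 26.8 and 43.4 to 233), Tbxa2r (0.707 to 2.84 and 13.3 to 145) and Ptgir (4.58 to 17.4 and 28.7 to 236) did not overlap. These ratios are a description, with no test.

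**Figure D3:**
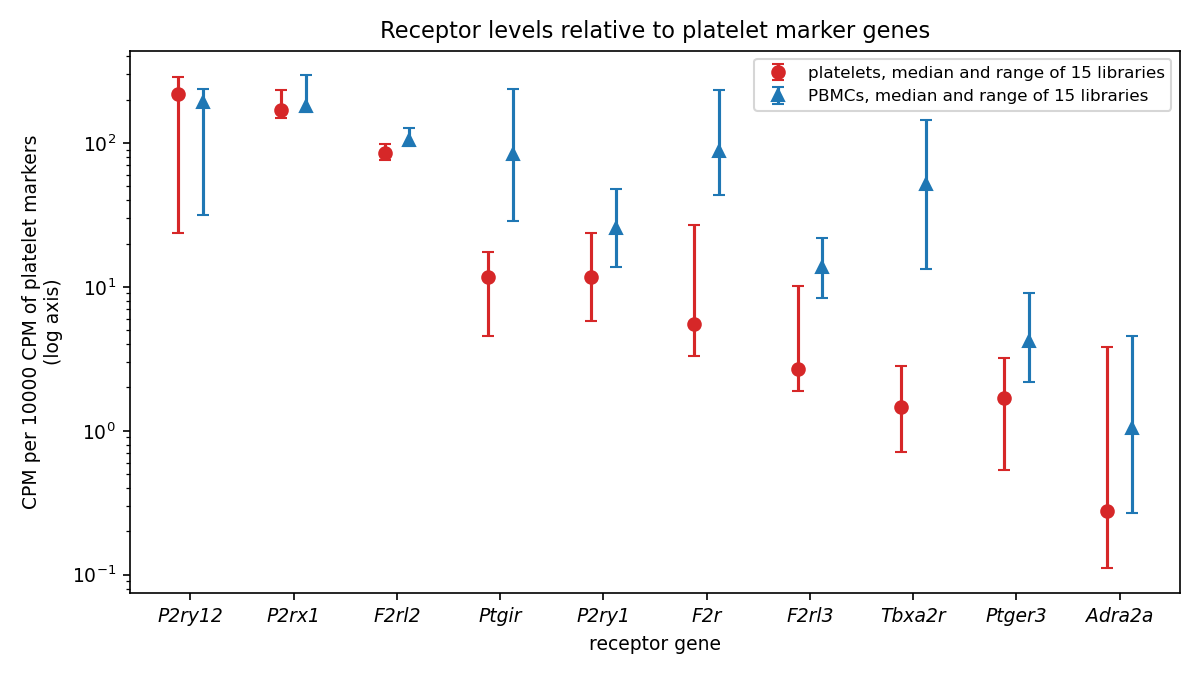
Median and range over 15 libraries of each receptor gene per 10000 CPM of 13 platelet markers (log axis), in platelets and in PBMCs. P2rx1, P2ry12 and F2rl2 had medians of 170, 220 and 85.1 in platelets and 182, 194 and 105 in PBMCs, whereas F2r had 5.55 and 87.5.

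Between the groups, no receptor was called in platelets or in PBMCs. In platelets, edgeR called 0 of 10 in S against C (0.00754% of all 13268 genes were called), 0 of 10 in S against O (0%) and 0 of 10 in O against C (0%). In PBMCs it called 0 of 9 in S against C (0.033%), S against O (0%) and O against C (0%). DESeq2 and the other alternatives also called no receptor, although DESeq2 called 9, 275 and 5 genes in the platelet comparisons and 25, 216 and 239 in those of PBMCs. At an unadjusted P under 0.05, 1 receptor was higher in platelets of S against C (6.42% of all genes passed in either direction), 3 were lower in S against O (13.9%) and 3 were higher in O against C (4.79%). In PBMCs, 0 passed in S against C (2.64%), 1 in S against O (12.2%) and 0 in O against C (11.9%). The median log2 fold change of the platelet receptors was −0.046 in S against C, −0.553 in S against O and 0.287 in O against C, beside −0.0147, −0.0142 and −0.00671 over all genes. In PBMCs the medians were −0.13, −0.424 and 0.219, beside 0.00934, −0.000848 and 0.00147.

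Tbxa2r was the receptor that passed the unadjusted threshold in platelets of the S group against the C group. Its level was 6.25, 6.30, 6.22, 6.12 and 7.04 CPM in S and 5.08, 4.22, 4.68, 5.36 and 4.84 in C, so that the groups did not overlap. Genes without overlap made up 0.55% (S higher) and 0.558% (S lower) of those tested. The log2 fold change was 0.44 (SE 0.195, adjusted P = 0.769), from 48 to 95 counts per library. It stayed at 0.36 to 0.48 when any one library was left out, but missed the unadjusted threshold without any one of 8 of the 10. T cell markers were higher in the same comparison at the unadjusted threshold for 3 of 8 genes (median log2 fold change 0.316), B cell markers for 2 of 6 (median 0.33) and NK cell markers for 1 of 6 (median 0.444), and monocyte markers had a median of 0.523 with 0 of 8 past that threshold. The part of these markers in the Tbxa2r difference was not tested.

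In the O group, F2r, F2rl3, Ptger3 and Adra2a were high in replicate 1 and, for all but Adra2a, replicate 4. F2rl3 had 61.5, 13.1, 8.16, 55.3 and 3.81 CPM in O, against 4.82 to 20.9 in C and 8.55 to 11.2 in S. Ptger3 had 19.3, 11.1, 5.17, 14.8 and 2.96 CPM in O, against 1.96 to 7.31 in C. In O against C, F2r differed by 1.73 on the log2 scale (SE 0.585, adjusted P = 0.91), Ptger3 by 1.21 (SE 0.505, adjusted P = 0.91) and Adra2a by 2.45 (SE 0.989, adjusted P = 0.91). In S against O, F2r differed by −1.58 (SE 0.579, adjusted P = 0.303), F2rl3 by −1.44 (SE 0.631, adjusted P = 0.344) and Adra2a by −2.22 (SE 0.95, adjusted P = 0.335). Every one of these ranges overlapped between groups, and both comparisons share the O group libraries. Without O group replicate 1, the receptors at an unadjusted P under 0.05 fell from 3 to 0 in S against O and from 3 to 1 in O against C, while over all genes the share was 14.9% beside 13.9% in S against O and 4.38% beside 4.79% in O against C. The differences of O from C were then 1.06 for F2r and 0.45 for Adra2a, and the S against O differences were −0.93 for F2r, −0.93 for F2rl3 and −0.26 for Adra2a. The counts also fell to 0 in S against O without S group replicate 4, and to 1 in O against C without C group replicate 3. Neutrophil markers were high in O group replicate 1: 4 of 9 were higher in O than in C at the unadjusted threshold, with sums of 524.6 to 5231 CPM in O and 232.5 to 1077 in C. T cell and B cell markers were lower in O than in C for 4 of 8 and 3 of 6. In S against O, neutrophil markers were lower for 6 of 9 (median log2 fold change −2.22), and T cell and B cell markers were higher for 7 of 8 and 5 of 6. The part of these markers in the receptor differences was not tested.

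**Figure D4:**
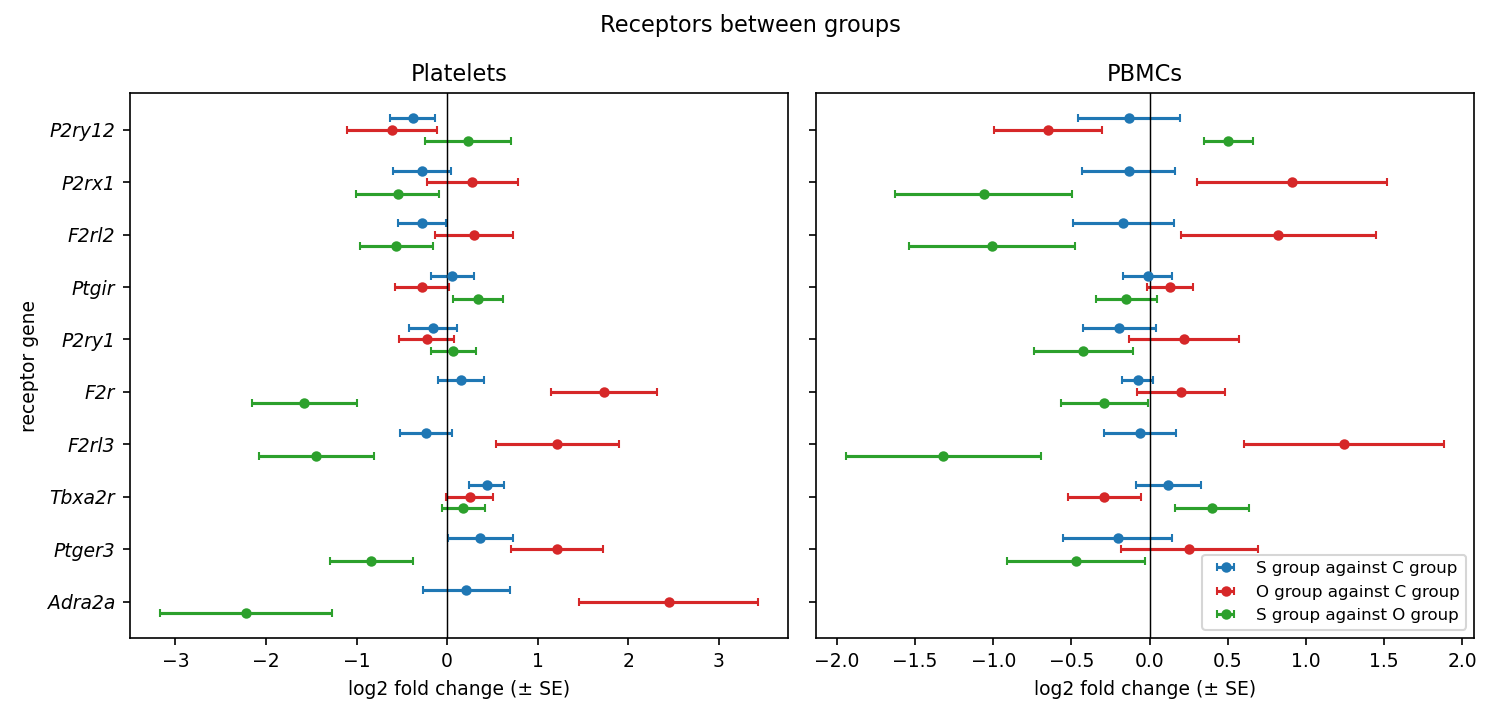
Log2 fold change of each receptor gene between groups, with bars for the standard error, in platelets (left) and PBMCs (right). The bars of the platelet O group are the widest for Adra2a (2.45, SE 0.989 against the C group), and no difference was called.

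In PBMCs, P2ry12 was the receptor that passed the unadjusted threshold, in S against O. It had 40.6, 41.2, 27.5, 47.2 and 32.0 CPM in the S group and 23.0, 24.3, 27.0, 31.8 and 20.98 in the O group, a log2 fold change of 0.50 (SE 0.155, adjusted P = 0.312). The S and O ranges overlapped. In the same comparison, at the unadjusted threshold, T cell markers were higher for 8 of 8 genes (sums of 575.6 to 885 CPM in S and 409 to 576.1 in O), NK cell markers for 6 of 6 (216.1 to 259.5 and 100.2 to 192.4 CPM), and erythroid markers were lower for 7 of 7 (median log2 fold change −2.63) and neutrophil markers for 3 of 9 (median −1.31). Platelet and megakaryocyte markers had a median of −0.86, with 1 of 12 lower and 0 higher. The part of these markers in the P2ry12 difference was not tested. The C group had 25.6, 51.5, 13.5, 59.1 and 59.2 CPM, a range wider than both. O against C differed by −0.65 (SE 0.344). F2rl3, P2rx1 and F2rl2 had 15.5, 174 and 83.7 CPM in PBMC O group replicate 1 and at most 6.24, 92.0 and 57.2 CPM in the other PBMC libraries, and platelet markers summed to 7246 CPM in that library against 574.5 to 4483 CPM in the others.

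Whether a group difference was unlike in platelets and PBMCs was tested by the interaction of tissue and group. No receptor was called in S against C, S against O or O against C by edgeR (0%, 0% and 0% of 16498 genes) or by DESeq2, which called 17, 140 and 1 genes. At an unadjusted P under 0.05, 0 receptors passed in S against C (5.38% of genes), 1 in S against O (13.6%) and 1 in O against C (6.59%). In both cases it was F2r, whose S against O difference was lower in platelets by 1.43 (tissue difference −1.43, SE 0.581, adjusted P = 0.285) and whose O against C difference was higher by 1.61 (SE 0.582, adjusted P = 0.574). Without platelet O group replicate 1 these became −0.57 and 0.81, and the genes called over all genes rose from 0 to 10 in S against O and from 0 to 215 in O against C, with no receptor among them. Without platelet O group replicate 5, 17 genes were called in S against O.

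P2ry12 was low beside P2rx1 and F2rl2 in O group replicates 1 and 4, both pools of 3 mice. The ratio of P2ry12 to P2rx1 per kilobase was 0.123 and 0.416 in these platelet libraries, and 1.82, 1.19 and 1.46 in O group replicates 2, 3 and 5. It was 0.869, 1.74, 1.71, 1.41 and 1.52 in the C group and 1.33, 1.28, 1.09, 1.2 and 1.47 in the S group. The PBMC libraries with the same numbers also had the lowest ratios, at 0.137 and 0.356, beside 0.854, 0.88 and 1.1 in the remaining O libraries, 0.652, 1.29, 1.01, 1.06 and 1.38 in C and 0.741, 1.25, 1.03, 1.49 and 1.18 in S. Replicate 1 had the lowest ratio in 5 of the 6 groups. In the same platelet libraries P2rx1 had 1204 and 2060 CPM, the latter its highest value in platelets, and F2rl2 had 551 and 826 CPM. P2ry12 had 144 CPM in replicate 1, its lowest value in platelets, but 830 in replicate 4, beside a platelet median of 828. The same-numbered PBMC libraries had 23.0 and 31.8 CPM of P2ry12, beside a PBMC median of 31.8. They had 174 and 92.0 CPM of P2rx1, beside a median of 33.9. Hemoglobin took 39 and 4.29% of the counts of platelet O group replicates 1 and 4. Their platelet markers summed to 60330 and 87930 CPM, within or above the range of 16350 to 71830 CPM of the others. The libraries were chosen after their values were seen, so no test was made.

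**Figure D5:**
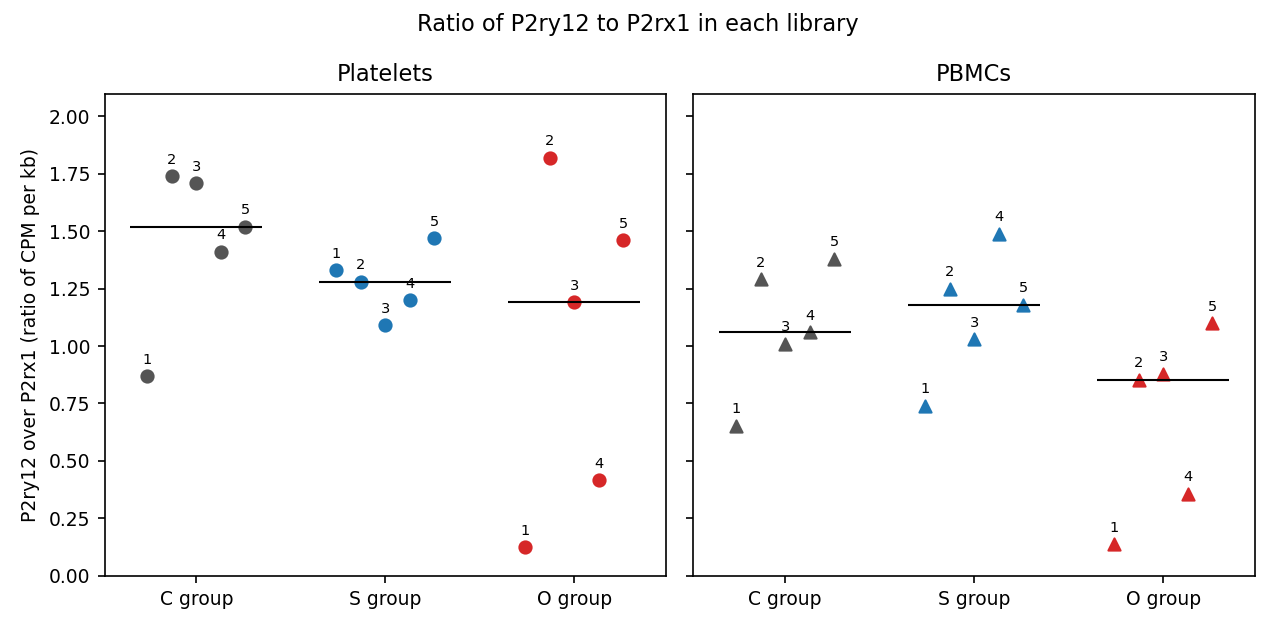
Ratio of P2ry12 to P2rx1 per kilobase in every library by group, in platelets (left) and PBMCs (right), with replicate numbers and a line at the group median. O group replicates 1 and 4 were lowest in both tissues (0.123 and 0.416 in platelets, 0.137 and 0.356 in PBMCs).

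Across the 15 platelet libraries, F2rl2 and P2rx1 moved most closely together (Pearson's r of log2(CPM + 1) = 0.979, and 0.977 without O group replicate 1). F2r and F2rl3 had r = 0.917 (0.867 without that library) and P2ry1 and Ptgir r = 0.894. P2ry12 ran against F2r (−0.404) and Adra2a (−0.522), but without that library these became 0.265 and 0.583. Of 9657 genes, those most like each receptor included Gm13509 (0.992) for F2rl2, Fcer1g (0.989) and Rbpms2 (0.986) for P2rx1, Tspan2 (0.984) for P2ry12, and C3ar1 (0.979) and Plxnc1 (0.961) for F2r. For F2rl3 they were Myom1 (0.965) and Nucb1 (0.964), for Ptgir Nfe2 (0.957) and Pdlim1 (0.955), for P2ry1 Trpc6 (0.913) and Ston2 (0.91), for Ptger3 Xk (0.916) and Foxk2 (0.911), and for Tbxa2r Trpv2 (0.865) and Ddost (0.825). The points share the platelet marker level of each library, which varied as given above, and the correlations are a description.

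Between tissues, the other genes of the pathways were set beside the 36.7% of all genes that were higher in platelets and the 44.7% that were lower. The median log2 fold change was −1.9 for other receptors, 1.03 for G proteins and effectors and 0.89 for ligand supply and removal, beside −0.122 over all genes. Of 37 other receptors for the same ligands or of the same families, 19 could be tested. Of these, 16 were lower in platelets than in PBMCs and 0 higher. A gene passed the low-count filter through either tissue, so genes high in PBMCs alone could enter and the filter partly sets this tally. Procr (mean 1.35 CPM in platelets and 0.039 in PBMCs), P2rx6 (1.29 and 0.125) and Htr2a (0.596 and 0.113) went the other way. They were not among the genes called. Lowest of those called were the thrombin-family member F2rl1 (PAR2, log2 fold change −2.63), the adenosine receptor Adora2b (−2.92) and the prostaglandin E receptor Ptger1 (−3.08). Adora2a (−0.60) was least reduced of those called. Adora2b and Ptger1 averaged 0.527 and 0.643 CPM in platelets and 3.67 and 5.38 in PBMCs, so their folds rest on few platelet counts. Of 58 G proteins and effectors, 33 of 55 tested were higher and 16 lower. Gng11, a G protein gamma subunit (5.32), Prkar2b, a regulatory subunit of protein kinase A (3.77), and Pde3a, which breaks down cyclic AMP (3.62), were highest, and Adcy7 (−2.53) and Pde2a (−2.94) lowest. Pde2a averaged 0.218 CPM in platelets and 1.65 in PBMCs, so its place rests on few platelet counts. Of 17 genes that supply or remove the ligands, 6 of 11 were higher and 5 lower, the latter a share like that over all genes. Ptgs1 (COX-1, 4.10) and Tbxas1 (thromboxane synthase, 3.28), which make thromboxane, were higher in platelets, and Ptgs2 (COX-2, −4.29) was lower. Ptgs2 averaged 0.859 CPM in platelets and 17.5 in PBMCs.

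Between groups, no gene of these 3 lists was called by edgeR. At an unadjusted P under 0.05 (6.42% of all genes), 4 of 18 other receptors were higher in platelets of S against C: the adenosine receptor Adora2a (log2 fold change 0.71, SE 0.19), F2rl1 (1.00, SE 0.345), P2ry2 (0.642) and P2rx7 (0.818). In S against O, where 13.9% of all genes passed, 5 of 16 were higher, with F2rl1 at 1.45 (SE 0.339) and P2rx4 at 1.08 (SE 0.344). In both comparisons T cell and B cell markers were higher at the same threshold (3 of 8 and 2 of 6 in S against C, 7 of 8 and 5 of 6 in S against O). In S against O, monocyte markers were also higher for 4 of 8 (median log2 fold change 0.73) and NK cell markers for 2 of 6, and neutrophil markers were lower for 6 of 9. B cell marker sums were 1454 to 2598 CPM in S, 1526 to 1639 in C and 730.2 to 1659 in O. The part of these markers in the receptor differences was not tested. Of the 54 effectors tested in platelets, 3 were higher in S against C, and 4 were lower and 2 higher in S against O, shares below those over all genes.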

How the data were processed

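Platelet and PBMC RNA was measured in 30 libraries. The authors selected poly-A RNA (NEBNext kit), aligned reads with HISAT2 (2.0.5), counted them per gene with featureCounts (1.5.0-p3) and deposited raw counts. Submitters' notes also list DESeq2 (1.16.1) and mm9, but 651 of 672 gene positions in the supplementary tables equal GRCm38, which is used here. Platelet samples carry the cell type tag PBMC and were grouped by title.

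Members and lists were chosen with earlier results of these data known. Symbols came from GENCODE M21 (54495 of 54532 IDs). Each comparison was fitted with edgeR (4.0.16, R 4.3.3; filterByExpr with a minimum count of 10, TMM, quasi-likelihood, Benjamini-Hochberg over all genes tested), with 5 libraries per group, or 15 per tissue. TMM factors over all libraries were 0.386 to 1.01 in platelets and 0.931 to 1.77 in PBMCs. Neighbouring levels were compared with SciPy (1.17.1). Alternatives were DESeq2 (1.42.0), limma voom (3.58.1), RLE factors, no filter, replicate blocks, all groups in one fit, each group alone, and single libraries left out. Fits were tested on simulated data.

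Named were all members, list genes with the smallest unadjusted P (at most 6 per list) or, between tissues, the 3 highest and 3 lowest called, and the 3 genes most like each member with a mean CPM of at least 5. Some of these were left out of the text. Same-numbered PBMC pools of the S and C groups deviated together (r of 0.301 to 0.578 in 5 of 5 pairs), a pairing taken from the data. The replicate block called no receptor there. The paper's legends speak of 5 independent experiments but do not tie replicate numbers to them. No libraries were duplicates.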

Additional observations from a re-analysis of the deposited data

Results flagged for a closer look

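In 7 of 60 groups of 5 libraries, the highest library of a receptor stood apart from the other 4 by Dixon's criterion. Independent, normally distributed values meet it in about 1 in 20 groups. CPM values need not be so distributed and the 60 groups share the same libraries, so that rate is no yardstick here. Adra2a had 22.9 CPM in platelet O group replicate 1, where the next library had 2.4, and 3.29 CPM in PBMC O group replicate 1, where the next had 0.379. Adra2a also had 0.572 CPM in PBMC S group replicate 3, next to 0.223. P2ry1 had 96.6 CPM in platelet C group replicate 1, next to 50.6. P2rx1 had 56.4 CPM in PBMC S group replicate 1, next to 33.9. Tbxa2r had 7.04 CPM in platelet S group replicate 5, next to 6.3. Ptgir had 18.8 CPM in PBMC C group replicate 5, next to 14.96.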

How the results depend on the processing

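No receptor was called between groups, or between tissues in a group difference, in any of 182 results under the alternatives. The 8 receptors higher in platelets stayed at 7 to 9 in the alternatives, and the 1 lower receptor, Tbxa2r, was 0 in the O group alone and 2 (with F2r at −0.49) with library totals as the only scaling. That scaling, chosen after seeing the data, moved the median of all genes to 0.202 (S against C), 0.0811 (S against O) and 0.119 (O against C) in platelets, to −0.017, 0.357 and −0.373 in PBMCs and to −1.34 between tissues. Of 57 receptor differences between groups, 25 changed sign in some setting, none of them called there, and the causes were not tested.

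Receptors at an unadjusted P under 0.05 in platelets numbered 0 in S against C with all genes kept or all 3 groups in one fit (7.72 and 4.97% of all genes), 1 in S against O and 0 in O against C with voom (17.4 and 6.53%). In PBMC S against O they numbered 2 with DESeq2, 4 with all genes kept, 2 with voom and 2 with library totals, where 13.2, 7.08, 14.2 and 26.7% of all genes passed. In PBMC O against C they numbered 1 with all 3 groups in one fit and 2 with library totals (13.7 and 29.9%). In the tissue difference of O against C they numbered 3 with library totals (11.8%), and in that of S against O 0 without O group replicate 1 in both tissues (15.5%), an alternative chosen after seeing the data. With the replicate number as a block they numbered 0 in platelets for S against C and for S against O, 2 in PBMC S against O and 2 in the tissue difference of O against C (5.77, 11.6, 13.8 and 7.31% of all genes). The block turned P2ry12 in PBMC S against C to 0.0095 and changed no call. Outside PBMC S against C, same-numbered pools did not all deviate together (lowest r from −0.362 to 0.0765), although 4 of 5 pairs had r over 0.1 between O group platelets and PBMCs (up to 0.64), O and C group platelets (0.445) and O and S group PBMCs (0.413), with 3, 4 and 4 of 5 matching their own number best, a hint from the data, so a pairing by number was not established there. Leaving out one library gave 0 to 1 in platelet S against C, 0 to 5 in S against O (0 without O group replicate 1 or S group replicate 4, 1 without S group replicate 1, 2 or 5, 5 without O group replicate 5) and 1 to 4 in O against C, while 4.14 to 11.4%, 9.6 to 16% and 3.47 to 7.93% of all genes passed. It gave 0 to 1 in PBMC S against C (1 without C group replicate 3), 1 to 5 in S against O (5 without O group replicate 5), 0 to 1 in O against C, and 0 to 2 in the tissue differences of S against O and of O against C, while 2.13 to 3.93%, 9.05 to 18%, 8 to 17.6%, 10.5 to 17.3% and 5.4 to 9.6% of all genes passed.

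Signs also changed with voom for F2r in platelet S against C (−0.12) and in its difference between tissues (−0.0062), P2ry1 in platelet S against O (−0.053), F2r in PBMC S against O (0.027), and F2r (−0.17), F2rl2 (−0.11), P2ry1 (−0.12), P2rx1 (−0.034) and Ptger3 (−0.24) in PBMC O against C. With library totals they changed for F2rl3 (0.070) and P2ry1 (0.12) in platelet S against C, F2r (0.20), P2ry1 (0.054) and Ptgir (0.26) in PBMC S against O, and F2r (−0.31), P2ry1 (−0.28), Ptger3 (−0.20) and Ptgir (−0.30) in PBMC O against C. Leaving out one library gave, in platelet S against C, −0.082 to 0.27 for F2r, −0.43 to 0.058 for F2rl3, −0.28 to 0.16 for P2ry1, −0.51 to 0.031 for P2rx1, −0.12 to 0.30 for Ptgir and −0.031 to 0.48 for Adra2a. It gave −0.016 to 0.35 for the F2r difference between tissues in S against C. In platelet S against O it gave −0.092 to 0.24 for P2ry1 and −0.063 to 0.75 for P2ry12, and in O against C −0.41 to 0.12 for P2ry1 and −0.14 to 0.62 for P2rx1. In PBMC S against C it gave −0.40 to 0.11 for F2rl2, −0.23 to 0.029 for F2rl3, −0.37 to 0.022 for P2ry12, −0.37 to 0.035 for P2rx1, −0.065 to 0.30 for Tbxa2r and −0.12 to 0.095 for Ptgir. In PBMC S against O it gave −0.45 to 0.0013 for F2r, and in O against C −0.088 to 0.37 for F2r, −0.014 to 0.38 for P2ry1, −0.0023 to 0.50 for Ptger3 and −0.015 to 0.21 for Ptgir.

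Over all genes, counts called also moved by over 1.5 times: with all genes kept, 33 in platelet and 12 in PBMC S against C, beside 1 and 5, and with the block 0 in platelet S against C. At the unadjusted threshold voom gave 2182 genes in platelet S against C beside 852, and library totals gave 3918 and 4403 in PBMC S against O and O against C beside 1796 and 1759. Depth limits Adra2a, Ptger3, Tbxa2r and F2rl3 most. Adra2a had as few as 1 count per library, and no fold is given for it between tissues.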
